A study of Mus musculus with 16 samples.

Results

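Monocytes derived from the bone marrow of wild-type mice and given TNF together with the compound PFM037 were compared with cells of the same animals given TNF alone. The members of this comparison are the 4 libraries labelled PFM037_TNF and the 4 labelled TNF, which are 8 of the 16 libraries of the series, and they were paired by the animal number in the titles. M-CSF, the macrophage colony-stimulating factor, was present in all groups for 24 h, so every control had M-CSF too, and the other 8 libraries came from the same 4 animals given vehicle or PFM037 without TNF. PFM037 is known here only by its code name. The sources used here do not give its target, the doses, the nature of the vehicle, or the strain, age and sex of the animals. Messenger RNA was selected by its poly(A) tail and sequenced, and all genes in the count table that passed a filter on low counts were tested.

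M-CSF acts through the receptor Csf1r and drives myeloid progenitors and monocytes to survive, divide and mature into macrophages. TNF is an inflammatory cytokine that binds the receptors Tnfrsf1a and Tnfrsf1b and signals through NF-kB and the mitogen-activated protein (MAP) kinases, whose targets include AP-1 factors such as Fos and Jun. In monocytes and macrophages these signals raise genes for chemokines, prostaglandin synthesis and nitric oxide synthesis, enzymes that degrade the extracellular matrix, and inhibitors that limit the same pathways. Dual-specificity phosphatases such as Dusp4 and Dusp5 remove phosphate from MAP kinases, and Nfkbia encodes an inhibitor of NF-kB.

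Total counts per library ran from 9403232 to 21017905 in the TNF group and from 15092524 to 18694616 in the PFM037_TNF group. Levels are in CPM, the count of a gene relative to the total of its library after scaling by TMM (trimmed mean of M values), in the order of animals 1 to 4. The 13 markers of monocytes and macrophages were all detected in the 8 libraries, with a summed level of 39286 to 48306 CPM in TNF and 37721 to 46224 CPM in PFM037_TNF, and none of the 13 was called different. Markers of neutrophils, promyelocytes, eosinophils, basophils, erythroid cells and lymphocytes were detected as well. Fewer cells of a type and less RNA per cell cannot be told apart in such bulk samples. The labels tie the libraries to 4 animals, and nothing in the sources used here says whether cultures were further replicated.

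A small share of genes passed the adjusted p threshold for PFM037 on top of TNF, and most of those changed by less than 2-fold. Genes that did not pass are not shown to be unchanged. Of 13856 genes tested, 74 were higher (0.534%) and 114 were lower (0.823%) in PFM037_TNF than in TNF, 188 or 1.36% together, by the quasi-likelihood test of edgeR with the animal as a block and a Benjamini-Hochberg adjusted p under 0.05. The counts of calls in the gene lists below are to be read beside that 1.36%. A single call, or none, in lists of those sizes is no result about the list. The median log2 change was 0.41 among genes called higher and -0.48 among genes called lower, beside 0.01 over all genes tested. No gene called higher reached a 2-fold change, whereas 17 genes called lower did, and 172 of the 188 had a mean of at least 5 CPM. The change had the same sign in all 4 animals for 184 of the 188 called genes, beside 22.9% of all genes tested, and the groups did not overlap for 21 genes called higher and 38 called lower, beside 1.29% and 1.49% of all genes tested in those directions.

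These calls rest on the pairing and on all 4 animals. Without the animal term edgeR called 0 genes (smallest adjusted p = 0.478), and 515 genes had an unadjusted p under 0.05, against 2132 with the term. Leaving out animal 1 with all its libraries left 1 call, leaving out animal 2 left 60, leaving out animal 3 left 27 and leaving out animal 4 left 3. Every one of 79 called genes named below for which this was examined lost its call when at least 1 animal was left out (78 for animal 1, 52 for animal 2, 62 for animal 3 and 76 for animal 4). The sign of the change was kept by all 188 genes, or by all of them that passed the filter, in each of these fits. Scaling by library size alone called 204 genes, of which 57.4% were higher, beside 39.4% of the 188. DESeq2 called 421 genes and limma-voom 240, of which 171 and 181 were among the 188.

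**Figure D1:**
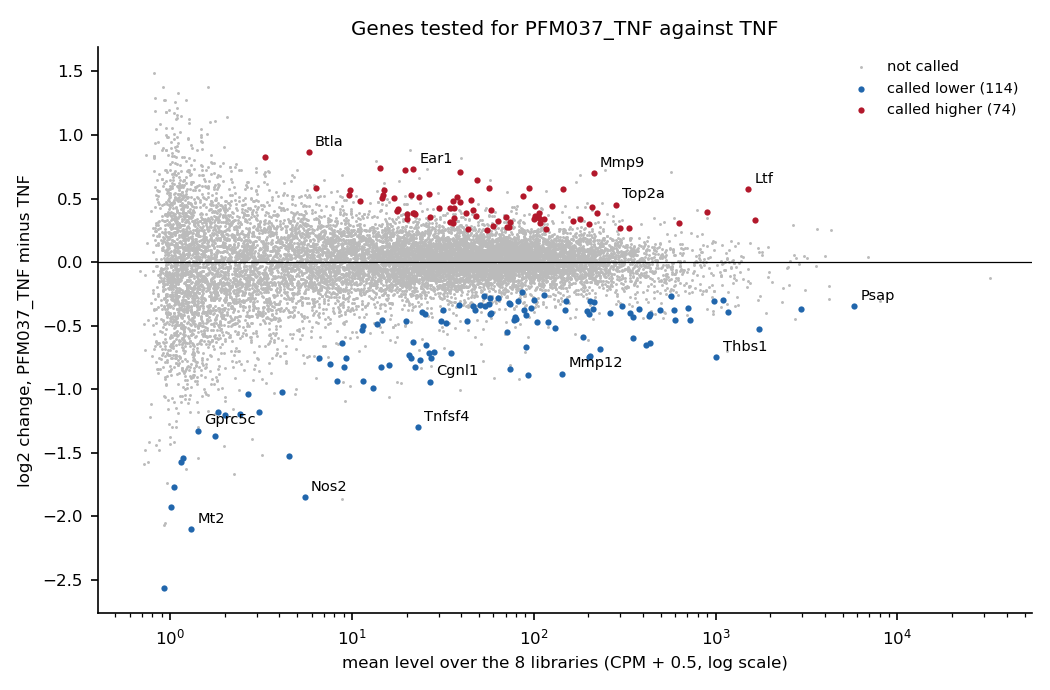
Log2 change of each tested gene between PFM037_TNF and TNF (y axis) against its mean level over the 8 libraries (x axis, CPM plus 0.5 on a log scale). Each point is a gene, with the 114 called lower in blue and the 74 called higher in red, and the called genes with the largest decreases lie at low levels.

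The largest decrease among genes with a mean of at least 5 CPM and the same sign in all animals was that of Tnfsf4, which encodes OX40 ligand, a TNF superfamily member that costimulates T cells. Tnfsf4 (chromosome 1, 161395409 to 161418410 on GRCm38, plus strand) stood at 46.3, 68.2, 8.52 and 8.06 CPM in the TNF libraries and at 12.6, 27.3, 3.97 and 5.92 CPM in the PFM037_TNF libraries. It was lower with PFM037 in each animal, while the level differed so much between animals 1 and 2 on the one side and animals 3 and 4 on the other that the groups overlapped. The log2 change was -1.30, SE 0.25, adjusted p = 0.0244. Ptgs2, the inducible cyclooxygenase of prostaglandin synthesis, was measured at 109, 60.7, 416 and 417 CPM with TNF and at 52.9, 43.9, 196 and 320.2 CPM with PFM037_TNF, with a log2 change of -0.75, SE 0.17, adjusted p = 0.0415. Nos2, the inducible nitric oxide synthase, was listed at 0.342, 0, 21.1 and 10.3 CPM with TNF and at 0.0658, 0, 3.66 and 4.59 CPM with PFM037_TNF (log2 -1.85, SE 0.35, adjusted p = 0.0305). Its level was near or at 0 in animals 1 and 2, so that call rests on animals 3 and 4, and without animal 4 the log2 change was -2.53 (adjusted p = 0.0815). Nos2 lies on chromosome 11 at 78920787 to 78960254 (plus strand).

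Secreted mediators held 2 calls. Cxcl1, a chemokine that attracts neutrophils, was at 24.0, 13.3, 43.9 and 24.4 CPM with TNF and at 16.8, 12.7, 20.9 and 14.4 CPM with PFM037_TNF (log2 -0.63, SE 0.15, adjusted p = 0.0493), the only call among 18 chemokines tested, of which 13 had a change below 0. Among 21 cytokines tested, 17 were below 0 and only Osm, which encodes oncostatin M of the interleukin-6 family, was called, at 82.9, 61.5, 219.8 and 252 CPM with TNF and 63.5, 41.7, 126 and 198 CPM with PFM037_TNF (log2 -0.52, SE 0.11, adjusted p = 0.0407). The median log2 change was -0.31 over the cytokines and -0.20 over the chemokines, with animal 2 on the other side of 0 at 0.03 and 0.09. Without animals 1, 2, 3 and 4 in turn, the adjusted p of Tnfsf4, Nos2, Ptgs2, Cxcl1 and Osm ran over 0.0845 to 0.173, 0.027 to 0.0576, 0.0642 to 0.292 and 0.0635 to 0.22. The call was also lost for Nos2 with limma-voom (adjusted p up to 0.124), and for Cxcl1 with DESeq2's size factors, scaling by library size alone and the filter of 5 CPM in 4 libraries (adjusted p up to 0.0561).

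The matrix metalloproteinases Mmp12 and Mmp13 and the transporters Slc6a12 and Slc6a13 are shown with their promoters because each pair lies side by side in the genome and both members fell. They are also the genes whose windows hold AP-1 or NF-kB letters among the 20 largest decreases with at least 5 CPM and the same sign in all animals. Called genes outside that set, such as Mt2, hold such letters too. The sequences are RefSeq promoter windows of GRCm38.p6, from 250 bases before to 50 bases after a transcript start, and capitals mark matches of AP-1 (TGANTCA) or of the 10-letter NF-kB motif on either strand. For Mmp12, Slc6a12 and Slc6a13, which have 2, 5 and 3 windows in the table, the window shown is one that holds a match, and for Mmp12 and Slc6a13 it lies inside the annotated gene.
Mmp12, chr9:7347124-7347423, plus strand: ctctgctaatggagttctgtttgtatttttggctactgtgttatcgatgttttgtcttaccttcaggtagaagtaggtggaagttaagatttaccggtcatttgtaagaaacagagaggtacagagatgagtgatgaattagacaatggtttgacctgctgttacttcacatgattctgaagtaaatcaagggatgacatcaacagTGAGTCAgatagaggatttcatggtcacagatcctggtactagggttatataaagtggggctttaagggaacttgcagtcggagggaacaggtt
Mmp13, chr9:7272264-7272563, plus strand: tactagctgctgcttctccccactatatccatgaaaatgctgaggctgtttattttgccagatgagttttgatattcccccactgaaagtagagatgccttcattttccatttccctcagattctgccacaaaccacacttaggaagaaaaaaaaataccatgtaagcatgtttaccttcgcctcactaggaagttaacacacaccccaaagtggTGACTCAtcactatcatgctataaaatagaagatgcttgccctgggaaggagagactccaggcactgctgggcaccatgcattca
Slc6a12, chr6:121342324-121342623, plus strand: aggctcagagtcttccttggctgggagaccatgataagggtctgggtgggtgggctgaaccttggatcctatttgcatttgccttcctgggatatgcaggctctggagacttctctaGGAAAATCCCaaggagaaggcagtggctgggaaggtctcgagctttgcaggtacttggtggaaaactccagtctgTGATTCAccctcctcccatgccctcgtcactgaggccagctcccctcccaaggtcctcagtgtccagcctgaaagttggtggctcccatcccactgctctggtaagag
Slc6a13, chr6:121303389-121303688, plus strand: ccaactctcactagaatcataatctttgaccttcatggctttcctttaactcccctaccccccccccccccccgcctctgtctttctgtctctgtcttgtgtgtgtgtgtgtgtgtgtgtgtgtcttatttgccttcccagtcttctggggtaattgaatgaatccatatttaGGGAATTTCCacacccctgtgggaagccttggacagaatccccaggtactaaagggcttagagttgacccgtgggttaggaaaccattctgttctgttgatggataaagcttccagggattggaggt
Relative to the start, the matched AP-1 letters begin at -44 for Mmp12, -35 for Mmp13 and -58 for Slc6a12, and the NF-kB letters at -133 for Slc6a12 and -77 for Slc6a13. Over all genes, AP-1 letters stood in a window of 15 of the 85 genes called lower that have one (17.6%) and of 6 of the 59 called higher (10.2%), beside 6.4% of the tested genes and 8.97% of all genes of the table. NF-kB letters stood in 6 of 85 (7.06%) and 4 of 59 (6.78%), beside 2.12% and 1.89%. A gene counts where any of its windows matches, and genes differ in their number of windows. Per window, AP-1 letters stood in 12.3% for genes called lower and 8.97% for those called higher, beside 5.35% for tested genes. The NF-kB shares per window were 5.74%, 5.13% and 1.78% in that order. Of the other motifs searched, CACGTG (E-box) stood in 8 genes called lower (9.41%) and 4 called higher (6.78%), beside 11.8% of tested genes and 8.09% of all. TGACGTCA (CRE) stood in 2 and 0 genes, beside 3.63% and 2.03%, and GCGTGGGCG (EGR) in 1 and 1, beside 1.51% and 0.707%. A match is a description of the letters and not evidence of a bound site.

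Slc6a12 and Slc6a13, plasma membrane carriers for betaine and gamma-aminobutyric acid, were among the genes with the smallest adjusted p. Slc6a12 (chromosome 6, 121343076 to 121365775, plus strand) was at 80.8, 65.2, 122 and 106 CPM with TNF and at 44.1, 30.1, 68.6 and 75.3 CPM with PFM037_TNF, a log2 change of -0.84, SE 0.12, adjusted p = 0.0181. Slc6a13 (chromosome 6, 121300227 to 121337733, plus strand) was at 18.97, 14.1, 13.1 and 11.5 CPM with TNF and at 6.84, 7.18, 7.69 and 8.32 CPM with PFM037_TNF, a log2 change of -0.94, SE 0.15, adjusted p = 0.0181. The libraries of Slc6a13 did not overlap between the groups, whereas those of Slc6a12 did, although it fell in every animal. They were the only 2 calls among 19 amine and amino acid transporters tested, of which 9 had a change above 0 and 10 below, with a median of -0.08. For Slc6a12 and Slc6a13, the adjusted p was 0.0528 to 0.0845 when animal 1 was dropped, and 0.0464, 0.0399 to 0.0435 and 0.0368 to 0.057 for animals 2, 3 and 4.

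Genes of the extracellular matrix and of coagulation gave calls in both directions, with 5 of 26 tested members lower and 1 higher. Mmp12, macrophage elastase (chromosome 9, 7344381 to 7369499, plus strand), was at 289, 172, 178 and 110.3 CPM with TNF and at 139, 108, 69.1 and 78.3 CPM with PFM037_TNF (log2 -0.88, SE 0.19, adjusted p = 0.0397). Mmp13, a collagenase (chromosome 9, 7272514 to 7283331, plus strand), was at 34.0, 8.52, 58.5 and 34.3 CPM with TNF and at 19.7, 4.94, 29.5 and 24.4 CPM with PFM037_TNF (log2 -0.75, SE 0.15, adjusted p = 0.0261). Both fell in every animal, Mmp13 from very different starting levels. Mmp9, a gelatinase (chromosome 2, 164940780 to 164955850, plus strand), went the other way, from 121, 231, 167 and 128 CPM to 225, 418, 208 and 210.1 CPM, a log2 change of 0.70, SE 0.13, adjusted p = 0.0234. Animal 2 held the highest level of Mmp9 in both groups, and the other PFM037_TNF libraries lay close together.

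F7 and F10 encode coagulation factors, Thbs1 encodes thrombospondin 1, an adhesive glycoprotein, and Ctsk encodes cathepsin K, a protease of osteoclasts. The level of F7 was 23.6, 15.4, 40.3 and 31.5 CPM with TNF and 11.2, 7.39, 22.5 and 23.02 CPM with PFM037_TNF (log2 -0.82, SE 0.16, adjusted p = 0.0244). F10 was more abundant, at 501, 395, 646 and 579.7 CPM against 317, 244, 404 and 411 CPM (log2 -0.64, SE 0.11, adjusted p = 0.0233). Thbs1 was at 487, 499, 1905 and 2351 CPM against 364, 348, 694 and 1441 CPM (log2 -0.75, SE 0.17, adjusted p = 0.0426), and its decrease was in every animal although animals 3 and 4 stood far above animals 1 and 2. Ctsk, from the osteoclast list, in which 2 of 17 tested members were called (Mmp9 higher and Ctsk lower), was at 21.4, 10.6, 48.3 and 46.5 CPM against 10.2, 6.33, 26.2 and 38.5 CPM (log2 -0.71, SE 0.17, adjusted p = 0.0469). Over the 26 matrix and coagulation genes the median log2 change was -0.07. Left out in turn, animals 1, 2, 3 and 4 gave adjusted p of 0.0702 to 0.173, 0.027 to 0.0948, 0.0399 to 0.159 and 0.0815 to 0.173 over Mmp12, Mmp13, Thbs1, F7, F10, Ctsk and Mmp9.

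**Figure D2:**
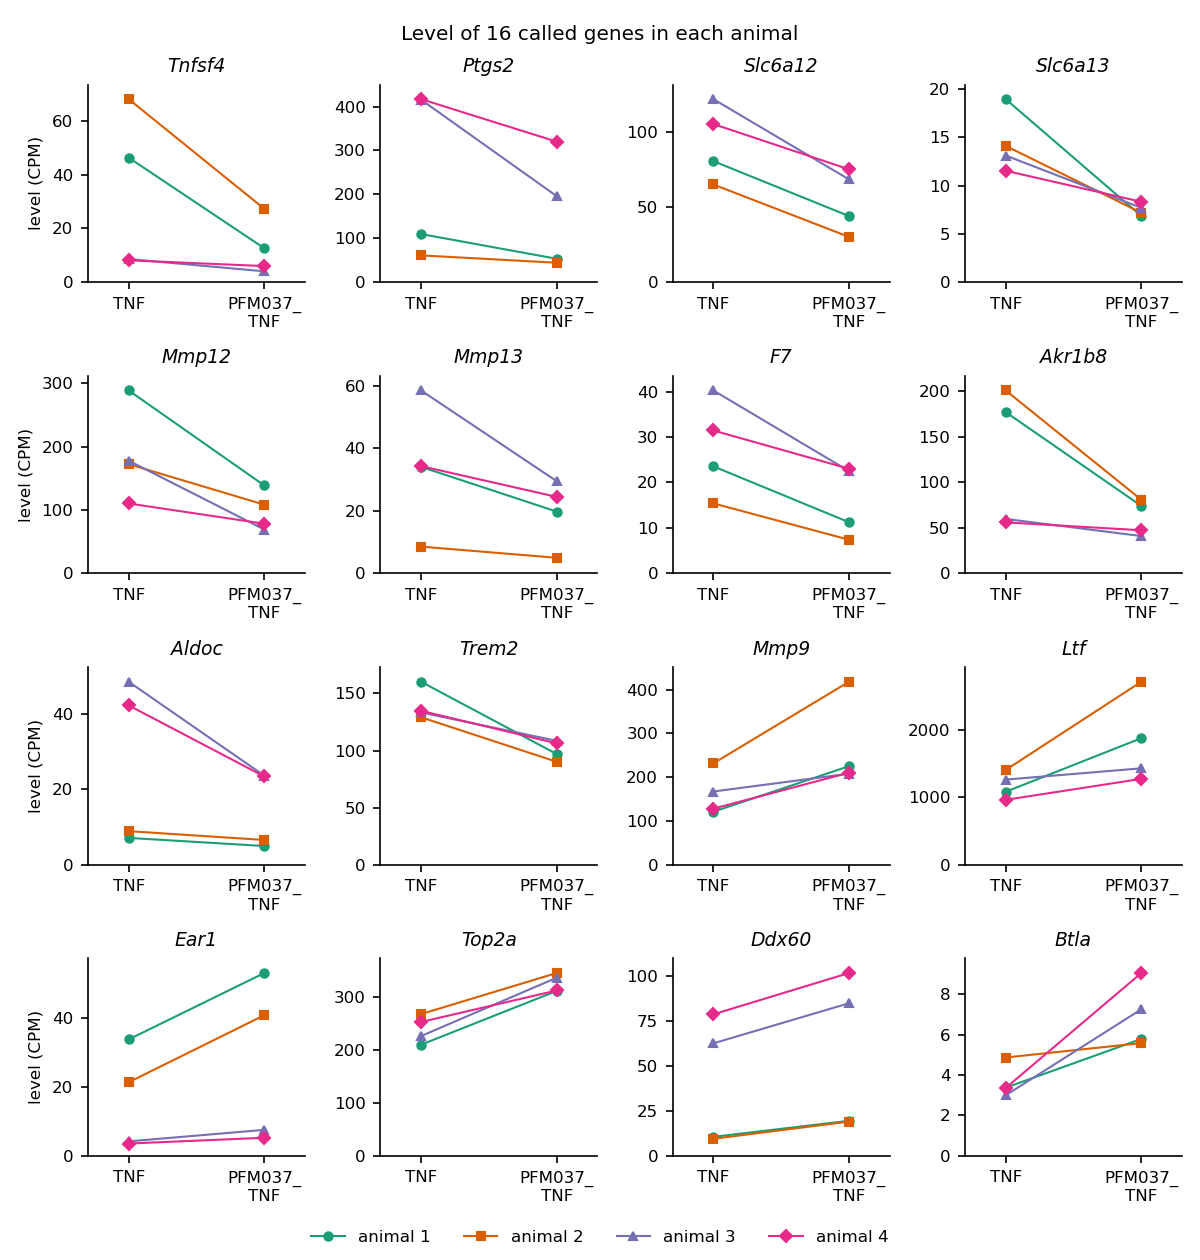
Level of 16 called genes in CPM (y axis, from 0) in the TNF and PFM037_TNF library of each animal, joined by a line. The first 10 genes fell and the last 6 rose in all 4 animals, while animals 1 and 2 stand apart from animals 3 and 4 in genes such as Tnfsf4, Aldoc, Ear1 and Ddx60.

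Feedback regulators and targets of the MAP kinases were lower where called. Dusp5 had nearly the same level in all TNF libraries, 108, 103, 112 and 111 CPM, and lay at 85.9, 72.2, 92.0 and 88.7 CPM with PFM037_TNF without overlap (log2 -0.36, SE 0.08, adjusted p = 0.0456). Dusp4 (chromosome 8, 34807297 to 34819894, plus strand) was at 148, 88.4, 70.1 and 65.4 CPM against 86.4, 62.5, 61.3 and 52.5 CPM (log2 -0.45, SE 0.10, adjusted p = 0.0385). Ier3, an immediate early response gene, was at 193, 123, 288 and 289 CPM against 140.0, 87.5, 171 and 189 CPM (log2 -0.59, SE 0.13, adjusted p = 0.0397). These 3 were the calls among 20 genes of the list, of which 12 were below 0, with a median of -0.11 and a median difference of 0.09 in animal 1. Nr4a1, an orphan nuclear receptor induced early by many stimuli, was the only call among 21 immediate early factors, beside 1.36% of all genes tested. It was measured at 67.8, 84.0, 492 and 407 CPM against 51.4, 50.4, 208 and 270.3 CPM (log2 -0.74, SE 0.14, adjusted p = 0.0234), lower in each animal, with animals 3 and 4 again far above the others. Plk2, a polo-like kinase and p53 target, was at 113, 89.3, 75.7 and 61.9 CPM against 68.9, 57.6, 53.1 and 50.3 CPM (log2 -0.55, SE 0.13, adjusted p = 0.0456) and was the only call among 25 p53 targets. Without animals 1, 2, 3 and 4 in turn, the adjusted p of Dusp4, Dusp5, Ier3, Nr4a1 and Plk2 ran over 0.0117 to 0.189, 0.0464 to 0.153, 0.0399 to 0.146 and 0.0881 to 0.172. With other settings the call was lost for Dusp5 with scaling by library size alone (adjusted p up to 0.0551).

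Inhibitors and subunits of NF-kB held no call among 22 genes tested, with 12 changes above 0, 10 below and a median of 0.03. Nfkbia gave a log2 change of -0.06 (95% interval -0.27 to 0.16). Zc3h12a, an RNase that degrades inflammatory transcripts, gave -0.19 (-0.40 to 0.01), and Cyld, a deubiquitinase, gave 0.15 (-0.01 to 0.30), the smallest unadjusted p-values of the list. Ligands and receptors of the TNF family, a list that does not hold Tnfsf4, had no call among 20 tested. Tnf itself gave -0.08 (-0.41 to 0.25), Tnfrsf1a -0.13 (-0.27 to 0.01), Tnfrsf1b -0.41 (-0.76 to -0.06, adjusted p = 0.237) and Tnfsf12 -0.50 (-0.80 to -0.20, adjusted p = 0.0899). The M-CSF gene Csf1 gave 0.10 (-0.16 to 0.36) and its receptor Csf1r -0.15 (-0.31 to 0.00). These intervals come from the edgeR fit, are not adjusted for the number of genes, and do not show that the genes were unaffected.

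Genes of redox defence were listed together with genes of iron and heme handling and of the pentose phosphate pathway. In that list 26 of 28 tested members were below 0, with a median log2 change of -0.28. Of its members, 17 were lower in all 4 animals (beside 10.7% of all genes tested). Only 3 passed the test. Prdx6, a peroxiredoxin, was at 833, 862, 565 and 532 CPM with TNF and at 575, 585, 423 and 437 CPM with PFM037_TNF (log2 -0.46, SE 0.10, adjusted p = 0.0456). Blvrb, biliverdin reductase B, was at 382, 367, 228 and 229.9 CPM against 269, 244, 192 and 197 CPM (log2 -0.40, SE 0.09, adjusted p = 0.0456), and Gstm1, a glutathione transferase, at 185, 232, 154 and 104 CPM against 153, 146, 109 and 101 CPM (log2 -0.38, SE 0.09, adjusted p = 0.0471). Hmox1, heme oxygenase 1, missed the threshold at -0.41 (95% interval -0.66 to -0.16, adjusted p = 0.103). Outside the list, Akr1b8, an aldo-keto reductase, fell from 177, 201, 59.8 and 56.0 CPM to 74.1, 80.9, 40.9 and 47.3 CPM (log2 -0.89, SE 0.15, adjusted p = 0.0195), with the larger decreases in animals 1 and 2. The glutathione peroxidases Gpx1 and Gpx4, named after their values were seen, were both called lower at -0.31.

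The metallothioneins Mt1 and Mt2, small proteins that bind zinc and copper, are neighbours on chromosome 8 and were also named after their values were seen. Their promoters are shown because both genes fell. Capitals mark the letters TGCNCNC on either strand, a motif added after the data had been seen. It is looser than the core of the metal response element (MRE), so a match need not be such a core.
Mt1, chr8:94178839-94179138, plus strand: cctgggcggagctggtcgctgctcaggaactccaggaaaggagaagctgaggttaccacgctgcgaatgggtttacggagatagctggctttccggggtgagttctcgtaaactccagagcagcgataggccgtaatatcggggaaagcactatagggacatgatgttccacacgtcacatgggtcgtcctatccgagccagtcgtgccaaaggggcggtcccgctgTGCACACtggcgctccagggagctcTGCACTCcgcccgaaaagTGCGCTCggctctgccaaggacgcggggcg
Mt2, chr8:94172368-94172667, plus strand: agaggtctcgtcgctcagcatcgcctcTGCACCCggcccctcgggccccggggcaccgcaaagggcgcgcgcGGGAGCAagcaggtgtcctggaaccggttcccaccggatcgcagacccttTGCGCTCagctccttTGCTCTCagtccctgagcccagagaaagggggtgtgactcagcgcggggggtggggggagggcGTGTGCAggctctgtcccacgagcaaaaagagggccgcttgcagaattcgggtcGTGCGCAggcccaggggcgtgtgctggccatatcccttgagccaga
The Mt1 window holds 3 such matches and the Mt2 window 6. The Mt2 window also holds the AP-1 letters TGACTCA at -79, which are not in capitals. Short as it is, TGCNCNC stood in 57.6% of the genes called lower and 54.2% of those called higher, beside 63.5% of the tested genes and 53.6% of all. Mt1 (94179082 to 94180327, plus strand) was at 30.7, 35.7, 19.2 and 15.2 CPM with TNF and at 22.0, 18.5, 10.5 and 9.72 CPM with PFM037_TNF (log2 -0.73, SE 0.11, adjusted p = 0.0181). Mt2 (94172664 to 94173568, plus strand) was scarce, at 2.0, 1.7, 0.937 and 0.56 CPM against 0.789, 0.213, 0.124 and 0.133 CPM (log2 -2.10, SE 0.42, adjusted p = 0.0305), and without animal 1 its log2 change was -2.74 (adjusted p = 0.0845). Mt1 and Mt2 resemble each other in sequence, so reads may have been shared or lost between them. For Mt1, Mt2, Akr1b8, Prdx6, Blvrb and Gstm1, the adjusted p was 0.0702 to 0.162 when animal 1 was dropped, and 0.0359 to 0.181, 0.0399 to 0.212 and 0.0378 to 0.123 for animals 2, 3 and 4. The call was also lost for Gstm1 with scaling by library size alone (adjusted p up to 0.0568).

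Glycolytic and hypoxia-responsive genes were mostly below 0, but not evenly over the animals. Of 28 tested, 23 were below 0 and 4 were called, all lower, with a median of -0.28, and the median difference was 0.03 in animal 1, -0.17 in animal 2, -0.52 in animal 3 and -0.37 in animal 4. Slc2a1, the glucose transporter Glut1, was at 177, 173, 332 and 279 CPM with TNF and at 147, 139, 220.2 and 225 CPM with PFM037_TNF (log2 -0.37, SE 0.08, adjusted p = 0.0397). Tpi1, triosephosphate isomerase, was at 375, 372, 1373 and 1349 CPM against 340.3, 304, 822 and 877 CPM (log2 -0.46, SE 0.10, adjusted p = 0.0426), and Pgk1, phosphoglycerate kinase, at 307, 317, 729 and 666 CPM against 295, 268, 419.8 and 461 CPM (log2 -0.41, SE 0.10, adjusted p = 0.0484). In both, the decreases in animals 3 and 4 were larger than those in animals 1 and 2. Ankrd37, a gene induced by hypoxia, was at 3.27, 1.83, 19.6 and 16.0 CPM against 2.3, 0.638, 7.32 and 11.0 CPM (log2 -0.93, SE 0.21, adjusted p = 0.0447). Outside the list, Aldoc, an aldolase (chromosome 11, 78322968 to 78327781, plus strand), was at 7.09, 8.88, 48.6 and 42.3 CPM against 4.93, 6.54, 23.6 and 23.4 CPM (log2 -0.75, SE 0.12, adjusted p = 0.0181). Left out in turn, animals 1, 2, 3 and 4 gave adjusted p of 0.0528 to 0.11, 0.027 to 0.0948, 0.0835 to 0.276 and 0.0881 to 0.215 over Aldoc, Ankrd37, Tpi1, Pgk1 and Slc2a1. With other settings the call was lost for Ankrd37 with limma-voom (adjusted p up to 0.0525), and for Pgk1 with scaling by library size alone (adjusted p up to 0.0633).

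Genes of lipid handling, the lysosome and macrophage maturation gave few calls, nearly all lower. Cd36, a scavenger receptor for fatty acids and oxidized lipoproteins, was at 706, 404, 288 and 331 CPM with TNF and at 351, 275, 192 and 267 CPM with PFM037_TNF (log2 -0.60, SE 0.12, adjusted p = 0.0375). Plin2, which coats lipid droplets, was at 502, 475, 370.0 and 361 CPM against 381, 335, 286 and 316 CPM (log2 -0.37, SE 0.08, adjusted p = 0.0397). They were the 2 calls among 23 genes of lipid uptake and of the targets of PPAR and LXR, of which 18 were below 0. Trem2, a lipid-sensing receptor of macrophages, was at 160.3, 129, 133 and 135 CPM against 96.9, 90.2, 109 and 106 CPM without overlap (log2 -0.47, SE 0.09, adjusted p = 0.0244), and was the only call among 25 maturation genes, which had a median of 0.04.

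In the lysosome and autophagy list 30 of 33 tested genes were below 0, 15 of them in all 4 animals, with a median of -0.15. Psap, the precursor of the saposins that assist lipid breakdown, was at 6039, 5052, 7625 and 7064 CPM against 4796, 3838, 5688 and 6055 CPM (log2 -0.34, SE 0.08, adjusted p = 0.0397). Gpnmb, a glycoprotein of macrophage lysosomes, was at 2084, 1284, 2423 and 2235 CPM against 1188, 707, 2016 and 1958 CPM (log2 -0.53, SE 0.13, adjusted p = 0.049). Ctsc, the cathepsin that activates serine proteases of granulocytes, was the only member called higher, from 496, 419.9, 1139.6 and 1168 CPM to 763, 707, 1274 and 1228 CPM (log2 0.40, SE 0.09, adjusted p = 0.0471). Mcoln2, an endolysosomal cation channel outside the list, fell from 36.7, 26.3, 26.3 and 27.4 CPM to 15.9, 14.1, 17.3 and 22.0 CPM without overlap (log2 -0.77, SE 0.13, adjusted p = 0.0195). Among 14 genes of alternative activation and retinoid response, 11 were below 0 with a median of -0.51, of which 8 were lower in all animals, but only Cd36 was called lower and Alox15 higher. Without animals 1, 2, 3 and 4 in turn, the adjusted p of Cd36, Plin2, Trem2, Psap, Gpnmb, Mcoln2 and Ctsc ran over 0.0845 to 0.265, 0.0464 to 0.172, 0.0399 to 0.14 and 0.057 to 0.118. The call was also lost for Gpnmb with scaling by library size alone (adjusted p up to 0.0535), and for Ctsc with DESeq2's size factors and the filter of 5 CPM in 4 libraries (adjusted p up to 0.0623).

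Other genes with the largest decreases belong to no list. Cgnl1, a tight junction protein (chromosome 9, 71626509 to 71771602, minus strand), was at 32.1, 55.9, 26.3 and 24.3 CPM with TNF and at 14.0, 27.6, 11.9 and 18.6 CPM with PFM037_TNF (log2 -0.94, SE 0.15, adjusted p = 0.0181). Mturn, which encodes the neural protein maturin, was at 12.2, 19.4, 20.3 and 14.4 CPM against 5.39, 8.5, 8.37 and 12.5 CPM (log2 -0.99, SE 0.21, adjusted p = 0.0397). Nenf, a secreted heme-binding protein (chromosome 1, 191306789 to 191318194, minus strand), was at 12.4, 11.3, 10.2 and 10.2 CPM against 8.09, 5.21, 7.19 and 5.86 CPM without overlap (log2 -0.76, SE 0.12, adjusted p = 0.0181). Cd28, the costimulatory receptor best known on T cells, was at 15.5, 10.3, 22.7 and 29.3 CPM against 5.79, 6.11, 15.8 and 18.0 CPM (log2 -0.81, SE 0.15, adjusted p = 0.0244). Sema3c, a secreted semaphorin, Ankrd66, A930007I19Rik and Gm44165 complete the 20 largest decreases among called genes with a mean of at least 5 CPM and the same sign in all animals, with log2 changes of -0.80, -0.82, -0.82 and -0.76. For Cgnl1, Cd28, Nenf, Mturn, Sema3c, Ankrd66, A930007I19Rik and Gm44165, the adjusted p was 0.0702 to 0.23 when animal 1 was dropped, and 0.0464 to 0.1, 0.0399 to 0.144 and 0.0378 to 0.125 for animals 2, 3 and 4.

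Genes of the cell cycle were mostly above 0 with PFM037 on top of TNF. Of 38 tested, 35 were above 0, 24 of them in all 4 animals (beside 12.2% of all genes tested), with a median log2 change of 0.28, and 5 were called, all higher. Top2a, a DNA topoisomerase of dividing cells, was at 210.0, 268, 226 and 253 CPM with TNF and at 312, 346, 337 and 312 CPM with PFM037_TNF (log2 0.45, SE 0.08, adjusted p = 0.0195). Nusap1, a spindle protein, was at 47.2, 58.1, 44.9 and 48.4 CPM against 68.6, 68.4, 67.0 and 58.4 CPM (log2 0.41, SE 0.08, adjusted p = 0.0234), and Kif11, a mitotic kinesin, at 83.5, 108, 87.3 and 99.7 CPM against 111, 121, 128 and 119 CPM (log2 0.35, SE 0.08, adjusted p = 0.0481). These 3 did not overlap between the groups. Rrm1, a subunit of ribonucleotide reductase, and Mcm4, of the replicative helicase, both gave a log2 change of 0.34.

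The median difference of the cell cycle list was 0.35 in animal 1, 0.10 in animal 2, 0.37 in animal 3 and 0.20 in animal 4. Aspm, a spindle pole protein outside the list, was at 13.5, 21.5, 16.4 and 25.1 CPM against 22.2, 25.4, 28.5 and 30.7 CPM (log2 0.51, SE 0.12, adjusted p = 0.0471). Ccnd1, cyclin D1, which couples growth signals to entry into the cycle, was at 136, 148, 63.1 and 83.6 CPM against 189, 182, 99.3 and 105 CPM (log2 0.44, SE 0.08, adjusted p = 0.0238), higher in each animal. Further called genes with roles in replication or mitosis, chosen after their values were seen, were Ect2 (0.47), Kif4 (0.43), Kntc1 (0.43), Esco2 (0.42), Pola1 (0.41), Smc2 (0.39), Fancd2 (0.38), Prc1 (0.32), Smc4 (0.32) and Ncapd3 (0.25), each given as its log2 change. Among 24 DNA repair genes 22 were above 0 with a median of 0.16 and none was called, Mdc1 giving 0.22 (adjusted p = 0.132). The median difference of that list was -0.02, 0.05, 0.28 and 0.23 in animals 1 to 4, and 5 of the 24 were higher in all animals. Left out in turn, animals 1, 2, 3 and 4 gave adjusted p of 0.0845 to 0.196, 0.0464 to 0.0734, 0.0928 to 0.29 and 0.0881 to 0.224 over Top2a, Nusap1, Rrm1, Mcm4, Kif11, Aspm and Ccnd1. The call was also lost for Kif11 with DESeq2's size factors and the filter of 5 CPM in 4 libraries (adjusted p up to 0.0619), and for Aspm with DESeq2's size factors and the filter of 5 CPM in 4 libraries (adjusted p up to 0.0577).

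Among transcripts of granulocytes, 7 called genes are described, all of them higher. Of these, Olfm4 is in no list and was named after its value was seen. The calls were 4 of 10 tested eosinophil markers and 2 of 12 tested neutrophil markers, beside 1.36% of all genes tested. Ear1, Ear2 and Ear6 encode ribonucleases of eosinophils and some macrophages, and Alox15 encodes a lipoxygenase of the same cells. Ear1 was at 33.9, 21.4, 4.22 and 3.58 CPM with TNF and at 53.2, 40.9, 7.57 and 5.26 CPM with PFM037_TNF (log2 0.73, SE 0.14, adjusted p = 0.0234). Ear6 was at 21.2, 11.3, 3.75 and 2.91 CPM against 39.0, 23.8, 4.09 and 3.59 CPM (log2 0.74, SE 0.16, adjusted p = 0.0407) and Ear2 at 22.97, 15.8, 4.22 and 2.91 CPM against 32.2, 28.8, 5.15 and 4.06 CPM (log2 0.57, SE 0.12, adjusted p = 0.0375). The 3 Ear genes belong to a family of related sequences, so their counts may not be independent of each other, which was not checked. Alox15 was at 54.9, 53.6, 9.09 and 4.7 CPM against 82.6, 74.6, 15.9 and 15.0 CPM (log2 0.71, SE 0.16, adjusted p = 0.0456). All 4 rose in every animal, while animals 1 and 2 held most of the transcripts in both groups.

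Ltf, lactoferrin of neutrophil granules, was at 1085, 1409.8, 1266 and 964 CPM with TNF and at 1884, 2726, 1435 and 1277 CPM with PFM037_TNF (log2 0.57, SE 0.11, adjusted p = 0.0244). Ly6g, a surface protein of neutrophils, was at 11.6, 16.9, 17.1 and 10.9 CPM against 24.3, 37.3, 15.8 and 17.9 CPM (log2 0.73, SE 0.15, adjusted p = 0.0388), higher in 3 of 4 animals. Olfm4, a granule protein, was at 21.8, 34.5, 34.3 and 27.7 CPM against 34.4, 55.0, 38.9 and 36.6 CPM (log2 0.48, SE 0.09, adjusted p = 0.0234). Mmp8, another neutrophil protease, had a change of the other sign, at -0.36 (SE 0.12, adjusted p = 0.156). Without animals 1, 2, 3 and 4 in turn, the adjusted p of Ear1, Ear2, Ear6, Alox15, Ly6g, Ltf and Olfm4 ran over 0.0767 to 0.246, 0.0609 to 0.161, 0.0213 to 0.153 and 0.057 to 0.147.

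As markers of other cells, the eosinophil list had 9 of 10 tested members above 0, a median of 0.47 and a summed level of 54.5 to 317 CPM in TNF and 70.3 to 501 CPM in PFM037_TNF, with no defining member at 0. The neutrophil list had 11 of 12 above 0, a median of 0.32 and a summed level of 10713 to 16023 CPM in TNF and 12105 to 24937 CPM in PFM037_TNF. Its median difference was 0.28, 0.66, -0.07 and 0.39 in animals 1 to 4, and in animal 3 the summed level was 12764 CPM with TNF and 12105 CPM with PFM037_TNF. Mast cell and basophil markers had 8 of 9 above 0, with a summed level of 149 to 352 CPM in TNF and 165 to 412 CPM in PFM037_TNF and no call, and the mast cell proteases Mcpt4 and Cma1 at 0 in all 8 libraries. Promyelocyte markers had 6 of 7 above 0 and no call, a median difference of -0.06 in animal 2 and of 0.43, 0.17 and 0.16 in animals 1, 3 and 4, and a summed level of 514 to 1572 CPM in TNF and 570.4 to 1589 CPM in PFM037_TNF. The part of these cells in the other results was not tested.

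Interferon-stimulated genes were above 0 in 34 of 35 cases tested, 24 of them in all 4 animals, with a median of 0.36, but only Ifit2 was called. The median difference was 0.59 in animal 1 and 0.63 in animal 2, where the list was low, and 0.06 and 0.21 in animals 3 and 4, where it was high. The summed level of the list ran over 727 to 5056 CPM in TNF and 1078 to 5704 CPM in PFM037_TNF. Ifit2, an inhibitor of translation of foreign RNA, was at 8.9, 8.7, 64.2 and 68.5 CPM with TNF and at 15.2, 10.5, 86.5 and 95.2 CPM with PFM037_TNF (log2 0.49, SE 0.11, adjusted p = 0.0471). Outside the list, Ddx60, a helicase linked to the sensing of viral RNA, was at 10.6, 9.49, 62.5 and 78.6 CPM against 19.5, 19.03, 84.8 and 102 CPM (log2 0.65, SE 0.14, adjusted p = 0.0397).

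The interferon-inducible genes Ifi203 and Ifi209 are members of a family of similar copies, so reads may be shared among them. Ifi203 was at 24.9, 18.0, 139.9 and 147 CPM against 49.8, 33.3, 152 and 187 CPM (log2 0.58, SE 0.13, adjusted p = 0.0456), and Ifi209 at 35.3, 18.1, 222 and 224 CPM against 60.7, 34.4, 259 and 300.5 CPM (log2 0.58, SE 0.12, adjusted p = 0.0397). Slfn9, a schlafen gene, was at 17.8, 18.3, 37.8 and 48.3 CPM against 26.1, 22.9, 63.4 and 63.0 CPM (log2 0.51, SE 0.12, adjusted p = 0.0481). Each rose in every animal, and the levels in animals 3 and 4 were above those in animals 1 and 2 in both groups. For Ifit2, Ddx60, Ifi203, Ifi209 and Slfn9, the adjusted p was 0.11 to 0.199 when animal 1 was dropped, and 0.0615 to 0.146, 0.0399 to 0.269 and 0.0928 to 0.22 for animals 2, 3 and 4. The call was also lost for Ifit2 with the filter of 5 CPM in 4 libraries and limma-voom (adjusted p up to 0.076), for Ddx60 with limma-voom (adjusted p up to 0.0793), for Ifi203 with the filter of 5 CPM in 4 libraries and limma-voom (adjusted p up to 0.0688), and for Slfn9 with DESeq2's size factors and the filter of 5 CPM in 4 libraries (adjusted p up to 0.0641).

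**Figure D3:**
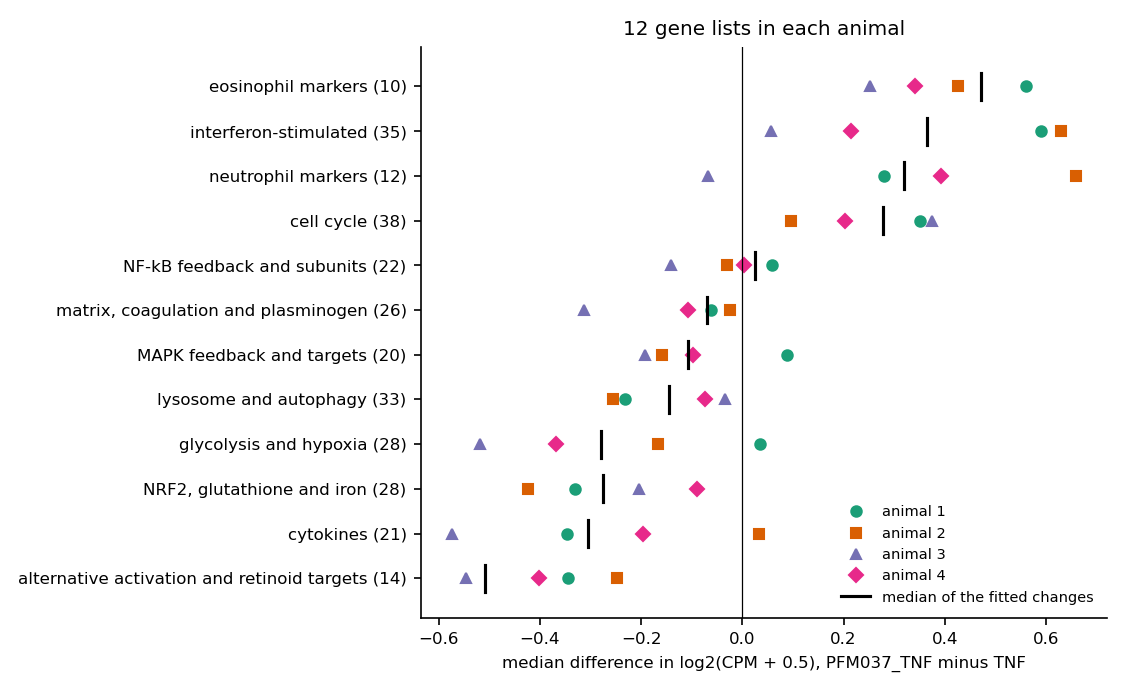
Median difference between PFM037_TNF and TNF, in log2(CPM + 0.5), over the tested members of 12 gene lists (number in brackets) in each animal, with the median of the fitted changes as a bar. The interferon list lies higher in animals 1 and 2 than in animals 3 and 4, the glycolysis list lies lower in animals 3 and 4 than in animals 1 and 2, and the NF-kB list lies near 0.

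Among the other genes called higher, Btla, an inhibitory receptor of lymphocytes and myeloid cells (chromosome 16, 45224315 to 45257670, plus strand), had the largest log2 change among called genes with a mean of at least 5 CPM. Btla was at 3.37, 4.87, 3.0 and 3.36 CPM with TNF and at 5.79, 5.58, 7.26 and 9.05 CPM with PFM037_TNF, without overlap (log2 0.87, SE 0.17, adjusted p = 0.0244). Rnf144a, a ubiquitin ligase (chromosome 12, 26300964 to 26415254, minus strand), was at 17.2, 23.4, 22.8 and 20.9 CPM against 24.1, 39.7, 28.8 and 30.9 CPM, also without overlap (log2 0.54, SE 0.09, adjusted p = 0.0181). Spint1, an inhibitor of serine proteases, was at 42.2, 34.3, 50.7 and 53.1 CPM against 73.1, 47.4, 84.1 and 64.7 CPM (log2 0.58, SE 0.11, adjusted p = 0.0234). Hdac9, a class II histone deacetylase, was at 5.47, 5.48, 3.84 and 3.81 CPM against 7.76, 8.08, 5.58 and 6.79 CPM (log2 0.58, SE 0.12, adjusted p = 0.0375). Tlr9, the receptor for unmethylated CpG DNA, was at 5.72, 6.94, 16.0 and 18.0 CPM against 9.67, 7.81, 24.6 and 24.4 CPM (log2 0.50, SE 0.12, adjusted p = 0.0471), and was the only call among 28 chemoattractant and pattern receptors. S1pr4, a receptor for sphingosine 1-phosphate, Mbnl3, an RNA-binding splicing regulator, Ipcef1, Bmx, a Tec-family kinase, and Gm1966 gave log2 changes of 0.56, 0.53, 0.52, 0.52 and 0.52. Left out in turn, animals 1, 2, 3 and 4 gave adjusted p of 0.0843 to 0.255, 0.027 to 0.196, 0.0399 to 0.279 and 0.0815 to 0.198 over Btla, Hdac9, Spint1, S1pr4, Rnf144a, Mbnl3, Ipcef1, Bmx, Gm1966 and Tlr9. With other settings the call was lost for Hdac9 with only the 8 libraries (adjusted p up to 0.0507), for S1pr4 with DESeq2's size factors and the filter of 5 CPM in 4 libraries (adjusted p up to 0.0571), for Bmx with only the 8 libraries and the filter of 5 CPM in 4 libraries (adjusted p up to 0.0675), and for Tlr9 with DESeq2's size factors, the filter of 5 CPM in 4 libraries and limma-voom (adjusted p up to 0.0621).

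Some called genes lie side by side in the genome. Within 100 kb of each other, a distance chosen after the data had been seen, there were 9 pairs of called genes, and all 9 pairs were of genes called lower. Of 184 called genes with a position 15 had a called neighbour (8.15%), beside 586 of 13487 tested genes (4.34%). Besides Mt2 and Mt1, Slc6a13 and Slc6a12, Mmp13 and Mmp12, and F7 and F10, they were Sema3c and Cd36 on chromosome 5, Gprc5c and Cd300a on chromosome 11, and the trio Ninj1, Card19 and Susd3 on chromosome 13. Slc6a13 and Slc6a12 are 5343 bases apart, F7 and F10 1499, and Mmp13 and Mmp12 61050, with no other tested gene between them. In each of these pairs both genes lie on the plus strand. Reads that run from a gene into its neighbour therefore cannot be assigned with certainty, whatever the strand setting of the counting, which is not stated.

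Ninj1, which encodes a protein that ruptures the plasma membrane of dying cells, was at 418, 406, 384 and 334 CPM with TNF and at 331, 272, 268 and 297 CPM with PFM037_TNF, without overlap (log2 -0.40, SE 0.07, adjusted p = 0.0234). Card19 was at 243, 263, 209.6 and 174 CPM against 214, 184, 143 and 144 CPM (log2 -0.38, SE 0.07, adjusted p = 0.0234) and Susd3 at 40.4, 45.7, 52.6 and 57.2 CPM against 30.4, 26.8, 41.1 and 47.2 CPM (log2 -0.46, SE 0.09, adjusted p = 0.0286). Cd300a, an inhibitory receptor of myeloid cells, had a narrow range of 218, 229, 229 and 220.3 CPM with TNF and lay at 159, 183, 196 and 191 CPM with PFM037_TNF, without overlap (log2 -0.30, SE 0.06, adjusted p = 0.0385). Gprc5c was near the limit of detection, at 0.44, 0.73, 1.5 and 2.69 CPM against 0.395, 0.213, 0.62 and 0.799 CPM (log2 -1.32, SE 0.30, adjusted p = 0.0456). Without animals 1, 2, 3 and 4 in turn, the adjusted p of Ninj1, Card19, Susd3, Gprc5c and Cd300a ran over 0.0702 to 0.162, 0.0737 to 0.11, 0.0819 to 0.192 and 0.0761 to 0.311. The call was also lost for Gprc5c with only the 8 libraries (adjusted p up to 0.0626).

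PFM037 was also compared with vehicle in the absence of TNF, in 8 libraries that are none of those compared above but come from the same animals. That comparison called 11 genes, 2 higher and 9 lower (0.0794% of 13856). Of the 188 genes called with TNF, 179 (95.2%) had the same sign without TNF, beside 67.4% of all genes tested, and 125 had an unadjusted p under 0.05 in the same direction. The median change without TNF was 0.21 for the genes called higher and -0.25 for those called lower, and it was smaller in size than with TNF for 173 of the 188. Because the genes were chosen by their change with TNF, that count is a description.

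Of the 11 genes, 7 were called in both settings. Dusp4 changed by -0.90 without TNF and -0.45 with it, Cgnl1 by -1.06 and -0.94, F7 by -0.87 and -0.82, Cd36 by -0.75 and -0.60, and Slc6a12 by -0.70 and -0.84, each on the log2 scale. Ear1 changed by 0.86 and 0.73, and Ear2 by 0.67 and 0.57. The other 4 were not called with TNF. Tgm2, a transglutaminase, gave -0.51 with TNF (adjusted p = 0.116), the kinase Pim3 -0.41 (0.0826), the secretory kinase Fam20c -0.31 (0.12) and Errfi1, an inhibitor of the EGF receptor, -0.34 (0.0701). Without the animal term PFM037 against vehicle gave no call (223 genes at an unadjusted p under 0.05), and leaving out animals 1, 2, 3 and 4 left 5, 1, 6 and 0.

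The difference between the effect of PFM037 with TNF and without it, tested as an interaction in the same edgeR fit, was past the threshold for 0 genes (smallest adjusted p = 1.00, 383 genes at an unadjusted p under 0.05; DESeq2 and limma-voom also called 0). With no filter on low counts, 34 genes were called. No gene that passed the filter is therefore shown to respond to PFM037 differently with TNF. Among the 188 genes the interaction had an unadjusted p under 0.05 for 52, beside 2.76% of all genes tested, but these genes were chosen by one arm of that contrast. For Tnfsf4 the difference of the log2 changes was -1.05 (95% interval -1.92 to -0.17), for Mturn -0.96 (-1.65 to -0.27), for Nenf -0.70 (-1.03 to -0.36), for Mt2 -2.02 (-3.21 to -0.84), for Ankrd37 -1.10 (-1.74 to -0.45) and for Aldoc -0.51 (-0.85 to -0.16). Dusp4 had a difference of 0.45 (0.16 to 0.73), with estimates of -0.90 without TNF and -0.45 with it, and Cgnl1 one of 0.12 (-0.32 to 0.56). The genes are examples from those called, their intervals are not adjusted for the number of genes, and none passed the interaction test. The interferon-stimulated list had a median of -0.02 without TNF and the cell cycle list one of 0.18.

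**Figure D4:**
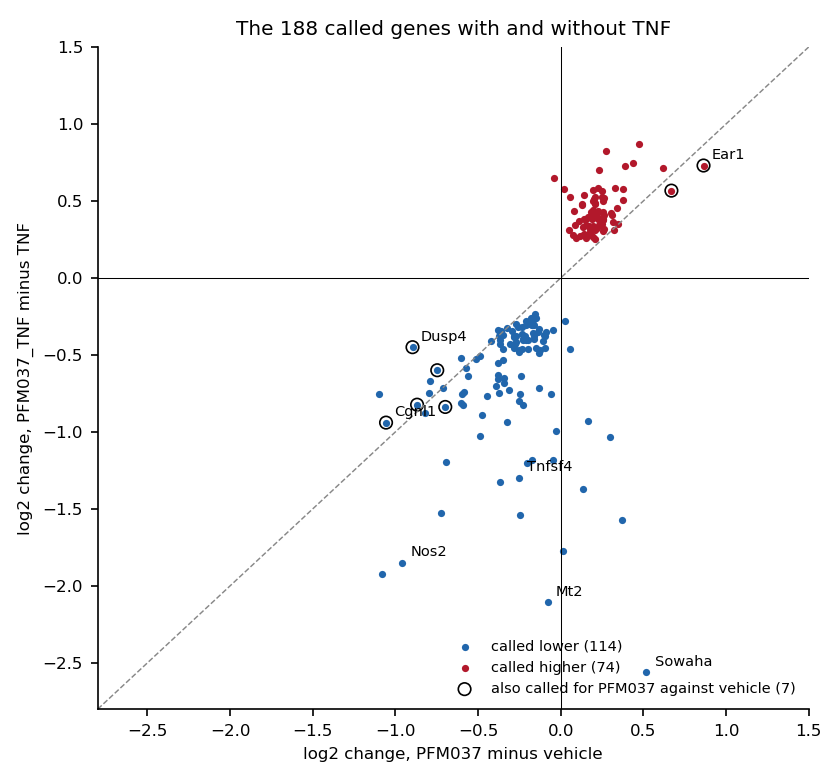
Log2 change of the 188 called genes with TNF (y axis, PFM037_TNF minus TNF) against the change without TNF (x axis, PFM037 minus vehicle), with the line of equal change dashed. Circles mark the 7 genes called in both, and most points lie on the same side of 0 on both axes and farther from it on the y axis.

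The levels in all 4 groups place these changes beside the effect of TNF itself. The comparison of TNF with vehicle shares the TNF libraries with the comparison reported here, so its values are only set beside it. Tnfsf4 averaged 4.07 ± 1.63 CPM with vehicle, 3.62 ± 2.78 with PFM037, 32.8 ± 29.6 with TNF and 12.4 ± 10.6 with PFM037_TNF (SD, n = 4). Mturn averaged 4.75 ± 2.81, 4.44 ± 1.22, 16.6 ± 3.9 and 8.69 ± 2.92 CPM in the same order. For Cxcl1 the means were 5.75 ± 1.94, 4.24 ± 0.697, 26.4 ± 12.8 and 16.2 ± 3.56 CPM, and for Slc6a12 44.1 ± 23.4, 26.2 ± 10.9, 93.5 ± 25.4 and 54.5 ± 21.1 CPM. In these 4 genes the mean with PFM037_TNF lay between those with vehicle and with TNF.

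Other genes, given as examples like those above, had other orders, and the orders were not counted over all called genes. Trem2, at 222 ± 29.6 CPM with vehicle, was lower with TNF (139 ± 14.1) and lowest with PFM037_TNF (100.5 ± 8.52). Mmp13 had the same order, with means of 58.5 ± 26.7, 33.8 ± 20.4 and 19.6 ± 10.6 CPM. Spint1 was at 89.9 ± 7.03 CPM with vehicle, 117 ± 9.73 with PFM037, 45.1 ± 8.55 with TNF and 67.4 ± 15.5 with PFM037_TNF. Hdac9 was at 9.83 ± 0.572, 12.4 ± 1.58, 4.65 ± 0.954 and 7.05 ± 1.12 CPM in the same order. Both means were highest with PFM037 alone and lowest with TNF, and with PFM037_TNF they too lay between vehicle and TNF. The log2 changes of PFM037 against vehicle were 0.38 and 0.33, neither called by edgeR (adjusted p = 0.219 and 0.305). For Top2a the mean with PFM037_TNF, 327 ± 17.1 CPM, was above that with vehicle, 291 ± 25.0 CPM, as well as that with TNF, 239 ± 26.0 CPM.

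**Figure D5:**
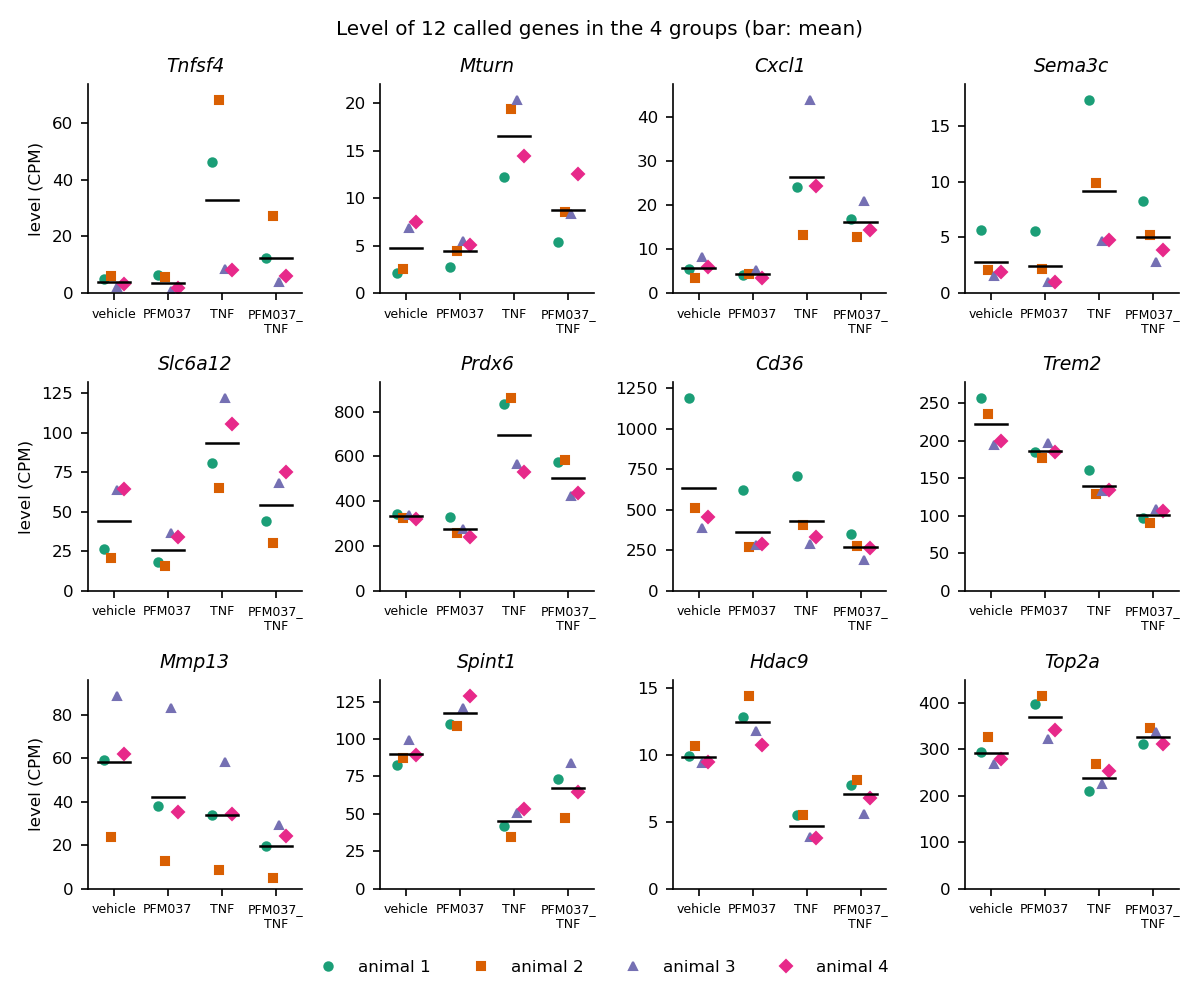
Level in CPM (y axis, from 0) of 12 called genes in the vehicle, PFM037, TNF and PFM037_TNF libraries, with a symbol for each animal and a bar for the mean of 4. By mean, Tnfsf4, Mturn, Cxcl1, Sema3c, Slc6a12 and Prdx6 are highest with TNF, whereas Trem2, Cd36 and Mmp13 are highest with vehicle.

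Cytosolic ribosomal proteins were below 0 for 28 of 31 members with a median of -0.10, and oxidative phosphorylation for 21 of 26 with a median of -0.11, without a call in either. Scaling by library size alone moved the median of all tested genes from 0.01 to 0.04. Heat shock genes were above 0 for 16 of 17, with a median of 0.06 and no call, Hspd1 giving 0.26 (adjusted p = 0.0612). Of the prostanoid, leukotriene and arginine list, Ptgs2 and Nos2 were the 2 calls among 23, and of 16 PIM, SOCS and STAT targets Ccnd1 was higher and Osm lower. No member was called in the lists of cholesterol synthesis, SMAD, BMP and ID genes, MHC class I or class II presentation, apoptosis, the unfolded protein response, nucleotide synthesis, or markers of dendritic cells, lymphocytes, erythroid cells and stroma. Mitochondrially encoded transcripts, taken as a sign of RNA quality, had no call among 9 tested, with median differences of -0.37, 0.08, 0.38 and 0.42 in animals 1 to 4.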

How the data were processed

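The deposited table holds read counts per gene, whole and not normalized, made by the authors, for 16 libraries. The submitters' processing notes name STAR 2.5.3a, featureCounts and limma with mm10 (GRCm38), and the sources used here do not give the annotation release or strand setting. Per the labels' protocols, 75-base single reads came from stranded, poly(A)-selected TruSeq libraries on a NextSeq 500. In R 4.3.3, edgeR 4.0.16 (TMM, filterByExpr with minimum count 10 and minimum total 15) kept 13856 of 50508 genes, and 1 quasi-likelihood model with a term for each group and each animal was fitted to all 16 libraries. Two-sided p-values were adjusted after Benjamini-Hochberg across the 13856 genes (threshold 0.05), log2 changes are model estimates with SE, and CPM values use the TMM library sizes. Differences within an animal use log2(CPM + 0.5). The fit was tested on simulated data. P-values rest on the spread left over all 16 libraries after the group and animal terms, with only 4 animals. Differences in level between the animals are taken up by the animal term. Counting error is larger in the shallow TNF libraries of animals 3 and 4.

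The pairing comes from the labels, which give the same 4 individuals in every group. The TNF and PFM037_TNF libraries deviated from their group means together, with a correlation across genes of 0.615, 0.722, 0.623 and 0.704 in animals 1 to 4. Correlations between libraries of different animals were not computed, so these values cannot show that the animal numbers match. No 2 libraries of the same group agreed within sampling noise. In every group animals 1 and 2 were closer to each other than to animals 3 and 4, and animals 3 and 4 likewise. Among TNF libraries, chi-square per degree of freedom was 18.6 and 8.43 within these pairs and 69.9 to 80.2 across them. Among PFM037_TNF libraries it was 17.5 and 8.71 within and 49.0 to 81.3 across. The cause of this split was not tested. Of 26 rows with a date for a symbol 19 were tested and none is named. Ca2 of the osteoclast list was not matched.

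The comparison, lists, tests and alternatives were chosen with earlier results of these data known. Genes were named as the 20 highest and 20 lowest log2 changes among called genes that had 5 CPM or more on average, a gene symbol, and a change of 1 sign in all 4 animals, up to 5 called members of each list by adjusted p (or the 2 with the smallest p where none was called), 7 fixed genes (Tnf and its 2 receptors, Csf1 and Csf1r, Hmox1 and Nfkbia) and the 11 genes called for PFM037 against vehicle. Neighbours, metallothioneins, further cell cycle genes, Gpx1, Gpx4, Olfm4 and Mmp8 were added after their values were seen. Positions are from GENCODE M21 (GRCm38), and promoter windows from RefSeq (GRCm38.p6) matched 144 of 188 called genes by symbol. Alternatives were the fit without the animal term, only the 8 libraries, other scaling and filters, DESeq2 1.42.0, limma-voom (limma 3.58.1), and each animal or library left out. Some genes that the rule names are not reported here.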

Additional observations from a re-analysis of the deposited data

Results flagged for a closer look

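In 158 groups of 4 libraries (79 called genes, TNF and PFM037_TNF), 5 held a library whose gap to its nearest neighbour, divided by the range of the group, passed Dixon's 95% critical value, where chance flags about 1 group in 20. Mmp9 was at 418 CPM in PFM037_TNF of animal 2, against 208 to 225 CPM in the others (ratio 0.918). Bmx was at 4.3 CPM in TNF of animal 1, against 8.52 to 8.88 CPM (0.922). Mcoln2 was at 36.7 CPM in TNF of animal 1, against 26.3 to 27.4 CPM (0.893). Nusap1 was at 58.4 CPM in PFM037_TNF of animal 4, against 67 to 68.6 CPM (0.837). Mt2 was at 0.789 CPM in PFM037_TNF of animal 1, against 0.124 to 0.213 CPM (0.867).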

How the results depend on the processing

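For PFM037_TNF against TNF, 188 calls (74 higher, 114 lower) became 0 with no replicate block, which moved PFM037 against vehicle from 11 to 0. With the replicate block kept, only the 8 libraries compared gave 408 (131 higher, 277 lower, 162 of the 188 among them), no filter beyond a count above 0 gave 653 (280 and 373), and DESeq2 gave 421 (185 and 236). Library size alone gave 204, of which 117 were higher (57.4%, beside 39.4%) and 87 lower. DESeq2's size factors, limma-voom and the stricter filter stayed within 1.5 times of the total (172, 240 and 166). Leaving out an animal with its 4 libraries, which leaves fewer samples, gave 1 to 60 calls (0 to 24 higher, 1 to 36 lower), and leaving out a single library with no replicate block gave 0. PFM037 against vehicle gave 4 calls with library size alone, 236 with no filter, 71 with DESeq2 and 0 to 6 without an animal. The interaction gave 34 with no filter and 0 otherwise. The cause of these differences was not tested. Among genes named, the sign turned only in fits with no replicate block that leave out a library. There Ifi203 and Ifi209 gave -0.065 and -0.077 without PFM037_TNF replicate 4. The other turns were of genes not called, at Tnf 0.013, 0.080, 0.153; Nfkbia 0.011, 0.081; Stard4 -0.019; Nlrc5 -0.105, -0.032; Hbb-bs 0.103, 0.120; Csf1 -0.152, -0.149, -0.068, -0.020; Ctss 0.0052, 0.051, 0.083; Psat1 -0.033; mt-Rnr1 0.048; Ms4a2 -0.015. The TNF libraries of animals 3 and 4 are the shallowest of the 8 and limit what low genes can show.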
